A study of Mus musculus with 12 samples.

Results

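Olfr747 and the receptor genes numbered Olfr740 to Olfr749 lie together on mouse chromosome 14. These 10 genes are 10 of the 1015 odorant receptor genes, and of the 19938 genes, measured on the arrays. Olfr747 was chosen because it was the gene called higher in reporter-positive cells of odor-exposed mice, so its value in that comparison is given as a description with no test. The other 9 were taken by their number and position around it. Each gene had 1 probe set, and none shared a probe set with another annotated symbol.

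An odorant receptor is a membrane protein in the cilia of olfactory sensory neurons that binds odorants and starts a cAMP cascade through the G protein Golf. A mature sensory neuron transcribes 1 receptor gene from 1 of its alleles, so the RNA of a receptor in a pool of neurons depends on how many neurons use that gene and on how much of it each neuron holds. In these bulk samples, fewer cells that use a receptor and less receptor RNA per cell cannot be told apart. Receptor genes lie in clusters, and neighbours often arose by duplication and have similar sequences. All 10 genes carry names of the MOR106 family, a group of receptors classed by protein similarity. RefSeq lists 13 such genes, all on chromosome 14 and all measured here. Olfr743, Olfr744 and Olfr748 each carry a MOR106 name that ends in P, the mark for a pseudogene in that naming.

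The groups were GFP+ cells of odor mice, GFP+ cells of vehicle mice, GFP- cells of odor mice and GFP- cells of vehicle mice, with 3 Mouse Gene 1.0 ST arrays each. All mice were S100a5-tauGFP animals of both sexes, 7 to 12 weeks old, in which a fluorescent reporter is driven by S100a5, a calcium-binding protein gene that sensory neurons transcribe when active. During 40 hours in clean air chambers at 3.1 L per minute, the odor mice received a 5% citrus accord and the vehicle mice filtered air, in 10 second pulses given every 20 minutes from 26 hours on. Each of 6 pools of 3 mice gave 1 array of each fraction, so by design the odor comparisons are between pools and the sort comparisons within them. The main fit had no block for the pool, so its sort tests are unpaired.

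The fractions differed in markers of several cell types. Of 10 mature sensory neuron markers, 9 rose in GFP+ over GFP- cells in odor mice and 9 in vehicle mice, and their mean log2 value per array was 12.79 to 12.81 in odor GFP+, 12.78 to 12.84 in vehicle GFP+, 12.18 to 12.49 in odor GFP- and 12.20 to 12.43 in vehicle GFP- cells. Omp, the marker protein of mature sensory neurons, was at 13.04 to 13.51 in all 12 arrays. The 6 leukocyte markers all fell in GFP+ cells, with array means of 7.75 to 8.24 in odor GFP+, 7.75 to 7.92 in vehicle GFP+, 11.62 to 12.11 in odor GFP- and 11.65 to 11.92 in vehicle GFP- cells. All 5 sustentacular cell markers measured fell as well, while 3 of 6 immature neuron markers rose and 2 fell in each treatment. All 3 markers of ciliated respiratory cells rose, 1 of 4 horizontal basal cell markers fell, and the 1 erythroid marker measured fell. Among all genes, 33.5% rose and 18.7% fell in odor, and 29.9% rose and 18.2% fell in vehicle mice. Counts among so few immature neuron or horizontal basal cell markers are not read as results about those cells. The ciliated cell markers rose by 0.468 to 0.727 in odor and 0.415 to 0.615 in vehicle mice. The mature neuron markers had medians of 0.483 in odor and 0.449 in vehicle mice. Whether ciliated respiratory cells differed in number was not tested. S100a5 itself was higher in GFP+ cells by 0.31 in odor mice (SE 0.10, limma adjusted p = 0.0166) and differed by 0.19 in vehicle mice (adjusted p = 0.123). Its GFP+ arrays lay above its GFP- arrays in both treatments, as for 40.4% of genes in odor and 35.3% in vehicle mice. In GFP- cells it was at 5.83 to 6.16 in odor and 6.08 to 6.23 in vehicle mice. Every GFP- array had it below the lower quartile of all genes of that array (6.25 to 6.41), so these differences are uncertain in size.

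Olfr747 occupies chr14:50680691-50681645 (GRCm38.p6), 955 bases on the minus strand. It lies between Olfr746, whose start relative to its own is at -27452 bases, and Olfr748, at 29641 bases. The 10 genes span chr14:50453054-50744324, 291271 bases in which 14 annotated genes start. With the strand of Olfr741 not in the table used, 7 genes run on the plus strand and Olfr747 and Olfr749 on the minus strand. Nearest to Olfr747 on the lower side are Olfr745 (chr14:50642195-50643369) and Olfr744 (chr14:50618224-50619195), and on the upper side Olfr749 (chr14:50736219-50744324). Farther down lie Olfr743 (chr14:50533414-50534349), Olfr742 (chr14:50515121-50516240), Olfr741 (chr14:50473057-50486395) and Olfr740 (chr14:50453054-50455678). Olfr746 covers chr14:50653239-50654183 and Olfr748 chr14:50710332-50711255.

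Promoter windows from RefSeq, 250 bases before to 50 after the annotated start, were available for 9 of the 10 genes. That of Olfr747 (chr14:50681596-50681895, minus strand) is shown because the gene stood apart from its neighbours in the data, and that of Olfr740 (chr14:50452804-50453103, plus strand) because it is the other window with TAATTA, a core site of homeodomain proteins, in capitals. TAATTA reads the same on both strands and began 230 bases before the annotated start of Olfr747 and 118 before that of Olfr740. It occurred in 5.29% of 32851 windows and in 18.6% of the 944 receptor windows. The Olf1/Ebf motif, TCCC and GGGA with any 2 bases between them and also the same on both strands, occurred in 0 of the 9 windows, in 0.90% of all windows and in 0.53% of receptor windows. Only this exact form was searched, so other forms of the site were not counted. Whether the receptor windows lie at the start of transcription was not tested.
Olfr747: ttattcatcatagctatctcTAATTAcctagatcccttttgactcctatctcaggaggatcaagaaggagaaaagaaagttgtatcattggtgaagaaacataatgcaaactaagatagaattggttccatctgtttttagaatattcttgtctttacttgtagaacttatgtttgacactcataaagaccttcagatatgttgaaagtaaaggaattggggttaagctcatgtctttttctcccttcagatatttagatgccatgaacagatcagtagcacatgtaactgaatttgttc
Olfr740: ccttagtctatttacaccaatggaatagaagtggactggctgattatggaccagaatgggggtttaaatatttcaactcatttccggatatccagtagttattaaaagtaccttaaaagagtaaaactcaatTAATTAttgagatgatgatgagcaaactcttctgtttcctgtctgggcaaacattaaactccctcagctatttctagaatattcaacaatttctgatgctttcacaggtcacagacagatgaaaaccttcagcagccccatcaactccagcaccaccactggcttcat

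The windows of Olfr746 (chr14:50652989-50653288) and Olfr748 (chr14:50710082-50710381), both on the plus strand, are shown because they are nearly the same and because these genes flank Olfr747. Capitals mark the 11 bases at which they differ, which leaves 289 of 300 identical (96.3%) with 0 gaps. Among the 36 pairs of windows the next highest identity was 73.7%, between Olfr740 and Olfr743, and the median was 46.3%. The window of Olfr747 had 44.4 to 52.3% identity with the other 8. The models of Olfr743, Olfr744, Olfr746 and Olfr748 have lengths divisible by 3, as a coding sequence alone would. Their windows may thus lie before the coding start and not before the start of transcription. The same may hold for Olfr740, whose annotated start falls on an atg, and for Olfr747, with an atg shortly after it.
Olfr746: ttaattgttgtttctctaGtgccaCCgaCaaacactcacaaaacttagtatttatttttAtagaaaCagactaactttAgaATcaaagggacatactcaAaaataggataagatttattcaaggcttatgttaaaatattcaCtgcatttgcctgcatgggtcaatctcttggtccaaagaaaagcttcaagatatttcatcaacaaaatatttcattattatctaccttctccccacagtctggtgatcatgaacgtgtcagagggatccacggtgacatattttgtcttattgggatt
Olfr748: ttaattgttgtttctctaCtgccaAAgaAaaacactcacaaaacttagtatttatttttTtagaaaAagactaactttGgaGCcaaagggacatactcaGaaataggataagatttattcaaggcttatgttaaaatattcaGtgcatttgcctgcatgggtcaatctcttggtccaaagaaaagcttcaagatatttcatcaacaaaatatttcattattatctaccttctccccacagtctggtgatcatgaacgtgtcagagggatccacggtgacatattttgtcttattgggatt

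Olfr747 had log2 values of 7.51, 8.05 and 7.56 in the odor GFP+ arrays, and 5.88, 6.33 and 6.22 in the vehicle GFP+ arrays. In GFP- cells it had 5.80, 5.73 and 5.55 in odor mice, and 6.37, 6.53 and 5.99 in vehicle mice. The odor GFP+ arrays stood above all others, and the odor GFP- arrays lay below all others, with the lowest vehicle GFP+ array next to them at 5.88. The group means were 7.71 ± 0.30 in odor GFP+, 6.14 ± 0.24 in vehicle GFP+, 5.69 ± 0.13 in odor GFP- and 6.30 ± 0.28 in vehicle GFP- cells (SD, n = 3 arrays each). In order of level, odor GFP+ cells came first, then vehicle GFP- and vehicle GFP+ cells, whose arrays overlapped, then odor GFP- cells, whose arrays lay below those of both vehicle groups.

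**Figure D1:**
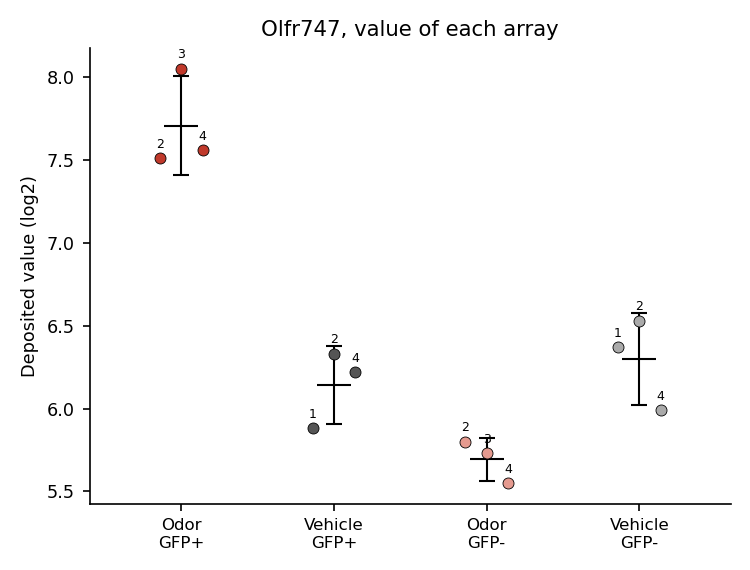
Deposited log2 value of Olfr747 in each array, by group; points are arrays with their replicate number, bars the mean and SD of 3. The odor GFP+ arrays sit between 7.51 and 8.05 and all other arrays between 5.55 and 6.53.

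In GFP+ cells Olfr747 was higher in odor than in vehicle mice by 1.57 on the log2 scale (SE 0.17), a 2.96-fold difference. This is the comparison that chose the gene. It was the only gene of 19938 called there in either direction (0.00502%), and its arrays did not overlap, as for 4.49% of genes and 1.48% of receptors that were higher. The call ended, with 0 genes called, without odor replicate 3 or 4 or vehicle replicate 1 or 4. It also ended with the sample code number as a block in the GFP+ arrays alone. In vehicle GFP+ cells 2 of 3 arrays, in odor GFP- cells 3 of 3 and in vehicle GFP- cells 2 of 3 had Olfr747 below the lower quartile of all genes of that array (quartiles of 6.25 to 6.41), the range in which array differences are least certain.

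In GFP- cells, on arrays that did not choose the gene, Olfr747 was lower in odor than in vehicle mice by 0.61 (log2 difference -0.61, SE 0.17, 95% interval -0.98 to -0.24), a 1.52-fold difference. The SE, interval and limma p draw their spread from all 4 groups, so they are not free of the GFP+ arrays that chose the gene. The 3 odor arrays lay below the 3 vehicle arrays, as they did for 4.65% of all genes and 2.17% of receptors. The unadjusted p from limma was 0.00376 and the adjusted p 0.732, so the difference did not pass, and 0 of 19938 genes did (0%). Unadjusted, 1301 genes (6.53%) had a p under 0.05, and Olfr747 was the only one of the 10 genes among them. Leaving out odor GFP- replicate 2, 3 or 4 gave 15, 3 or 1 genes called, and Olfr747 was called in none of these. Ranked by difference, 14 of 1015 receptors were further below. A single gene compared over 3 pools against 3 cannot reach an exact two-sided permutation p under 0.1. With mature neuron markers at 12.18 to 12.49 in odor GFP- and 12.20 to 12.43 in vehicle GFP- cells, the GFP- arrays of the treatments overlapped in these markers. The part of neuron content in the difference of Olfr747 was not tested.

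Within pools, Olfr747 was higher in GFP+ than in GFP- cells by 1.72, 2.32 and 2.02 in the 3 odor pools, and differed by -0.49, -0.20 and 0.22 in the 3 vehicle pools. The odor pools all lay above the vehicle pools. The mean sort difference was 2.02 ± 0.31 in odor and -0.16 ± 0.36 in vehicle pools (SD, n = 3). With receptors centred on the median receptor of each array, these became 1.32 in odor and -0.98 in vehicle mice. The median sort difference of all receptors was 0.66 in odor and 0.76 in vehicle mice. In odor mice 97 of the other receptors had a larger sort difference than Olfr747, against 837 in vehicle mice. These values share the GFP+ arrays that chose Olfr747 and were given no test.

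**Figure D2:**
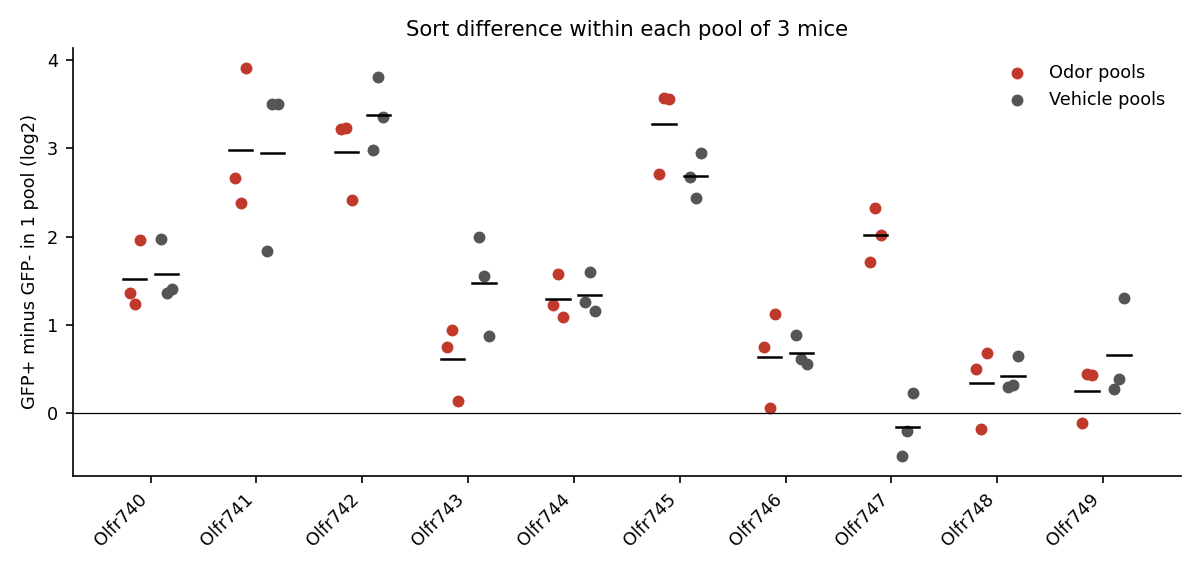
GFP+ minus GFP- log2 value within each pool of 3 mice for the 10 genes in chromosomal order; points are pools, red for odor and grey for vehicle, and bars their means. The odor and vehicle pools separate for Olfr747, at 1.72 to 2.32 in odor against -0.49 to 0.22 in vehicle pools.

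Most neighbours of Olfr747 were higher in GFP+ than in GFP- cells of both treatments. In odor mice 7 of the 9 rose in GFP+ over GFP- cells, where 33.5% of all genes and 57% of receptors were called higher, and in vehicle mice 8 of 9 did, where 29.9% of genes and 60.1% of receptors were. None was called lower in either, where 18.7% of genes and 12.4% of receptors were in odor and 18.2% of genes and 11.1% of receptors in vehicle mice. Their median sort difference was 1.30 in odor and 1.47 in vehicle mice, against receptor medians of 0.66 in odor and 0.76 in vehicle mice and medians over all genes of 0.13 in odor and 0.06 in vehicle mice. Within 1 treatment, GFP+ arrays lay above GFP- arrays for 40.4% of genes and 57.3% of receptors in odor and for 35.3% of genes and 60.9% of receptors in vehicle mice. For Olfr740 to Olfr745 all 6 GFP+ arrays lay above all 6 GFP- arrays, which held for 27.6% of all genes and 48.3% of receptors.

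Olfr745 had 11.23, 10.62 and 10.04 in odor GFP+ and 8.52, 7.05 and 6.49 in odor GFP- arrays, and 10.58, 10.64 and 10.53 in vehicle GFP+ and 7.90, 8.20 and 7.59 in vehicle GFP- arrays. GFP+ cells were above GFP- cells in every pool, and the odor arrays of both fractions spread more than the vehicle arrays. Its sort difference was 3.28 in odor mice (9.72-fold, SE 0.41, limma adjusted p = 4.14e-05), with 5 receptors above it, and 2.69 in vehicle mice (6.44-fold, adjusted p = 0.000201).

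Olfr742 had 8.21, 8.02 and 7.22 in odor GFP+ and 4.99, 4.79 and 4.81 in odor GFP- arrays, and 9.00, 8.02 and 7.78 in vehicle GFP+ and 6.02, 4.21 and 4.42 in vehicle GFP- arrays. The fractions were far apart, and replicate 1 of the vehicle mice was the highest of its group in both. The sort difference was 2.96 in odor mice (7.76-fold, SE 0.43, limma adjusted p = 0.000134) and 3.38 in vehicle mice (10.4-fold, adjusted p = 5.11e-05), where 8 receptors had a larger one. All 6 GFP- arrays had Olfr742 below their lower quartile, so these folds are uncertain in size.

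Olfr741 had 10.48, 10.27 and 10.03 in odor GFP+ and 7.82, 7.89 and 6.11 in odor GFP- arrays, and 10.96, 10.71 and 10.00 in vehicle GFP+ and 9.12, 7.21 and 6.50 in vehicle GFP- arrays. The GFP- arrays spread widely, with an SD of 1.01 in odor and 1.36 in vehicle mice, and still lay below all GFP+ arrays. Its sort difference was 2.99 in odor mice (7.92-fold, SE 0.59, limma adjusted p = 0.00105) and 2.95 in vehicle mice (7.70-fold, adjusted p = 0.00119). In 1 odor GFP- array, at 6.11, Olfr741 was below the lower quartile of all genes.

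Olfr744 had the smallest SE of the 10 genes, with 8.18, 8.26 and 7.92 in odor GFP+ and 6.95, 6.68 and 6.83 in odor GFP- arrays, and 8.23, 8.17 and 8.14 in vehicle GFP+ and 6.98, 6.58 and 6.98 in vehicle GFP- arrays. It rose in GFP+ cells by 1.30 in odor (SE 0.12, limma adjusted p = 3.08e-06) and by 1.33 in vehicle mice (adjusted p = 2.7e-06). Olfr740 had 7.93, 7.55 and 7.70 in odor GFP+ and 6.58, 6.31 and 5.74 in odor GFP- arrays, and 8.48, 7.76 and 7.65 in vehicle GFP+ and 6.51, 6.40 and 6.24 in vehicle GFP- arrays. It rose by 1.52 in odor (SE 0.23, adjusted p = 0.000152) and by 1.58 in vehicle mice (adjusted p = 0.000121). Olfr740 was below the lower quartile of all genes in 2 odor and 1 vehicle GFP- arrays. Neither gene's fractions overlapped in either treatment. Centred on the median receptor of each array, the difference of Olfr744 was 0.59 in odor (adjusted p = 0.0131) and 0.51 in vehicle mice (adjusted p = 0.0302), and that of Olfr740 was 0.81 in odor and 0.75 in vehicle mice. Centred in the same way, Olfr741 stood at 2.28 in odor and 2.12 in vehicle mice, Olfr742 at 2.25 in odor and 2.55 in vehicle mice, and Olfr745 at 2.58 in odor and 1.86 in vehicle mice. All 5 genes remained called in both treatments.

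**Figure D3:**
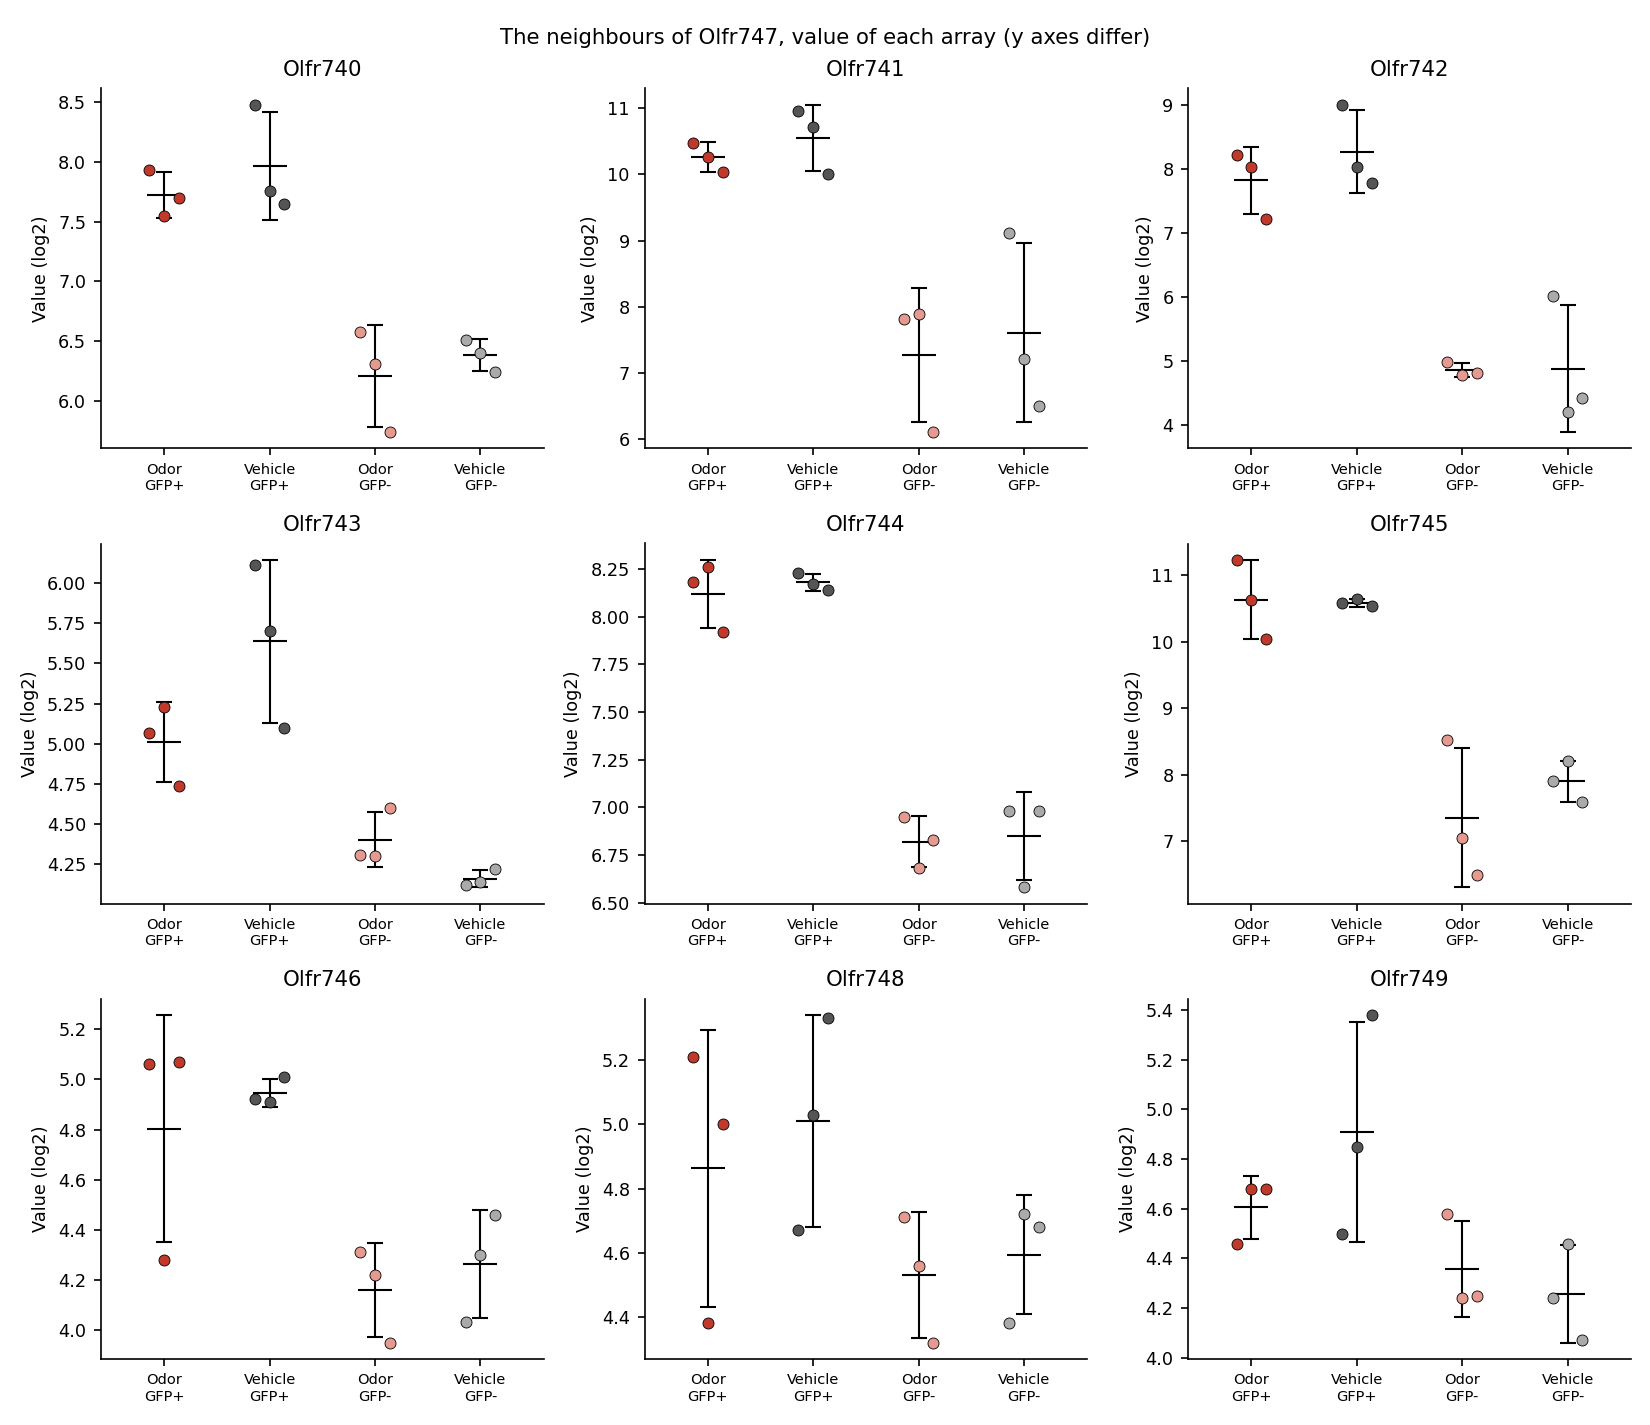
Deposited log2 value of each of the 9 neighbours in each array, by group, with the mean and SD of 3 arrays; the y axes differ. For Olfr740 to Olfr745 every GFP+ array is above every GFP- array, while Olfr746, Olfr748 and Olfr749 stay between 3.95 and 5.38 in all 12.

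The other 4 neighbours were below the lower quartile of all genes in all 12 arrays, and their small differences are the least certain. Olfr743 had 5.07, 5.23 and 4.74 in odor GFP+ and 4.31, 4.30 and 4.60 in odor GFP- arrays, and 6.11, 5.70 and 5.10 in vehicle GFP+ and 4.12, 4.14 and 4.22 in vehicle GFP- arrays. It rose in GFP+ cells by 0.61 in odor (SE 0.21, limma adjusted p = 0.0256) and by 1.47 in vehicle mice (adjusted p = 9.46e-05). Olfr746 rose by 0.64 in odor (SE 0.19, adjusted p = 0.0125) and by 0.69 in vehicle mice (adjusted p = 0.0087). Olfr749 differed by 0.25 in odor mice (SE 0.19, adjusted p = 0.268) and rose by 0.66 in vehicle mice (adjusted p = 0.0105).

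Olfr748 differed by 0.34 in odor mice (SE 0.21, limma adjusted p = 0.191) and by 0.42 in vehicle mice (adjusted p = 0.121). With the pool of mice as a block, its difference in vehicle mice was called (adjusted p = 0.0472). Relative to the median receptor, the differences of Olfr743 and Olfr746 in odor mice and of Olfr746 and Olfr749 in vehicle mice turned negative without being called, and that of Olfr749 in odor mice turned negative and was called, at -0.45 (adjusted p = 0.0426). The difference of Olfr743 in vehicle mice became 0.65 and was no longer called (adjusted p = 0.0633). Olfr748 stood at -0.37 in odor and -0.41 in vehicle mice, not called. In odor mice the call of Olfr743 ended without replicate 2 or 3 of either fraction (adjusted p of up to 0.0979). It also ended with a further quantile normalization (adjusted p = 0.0609), cyclic loess (adjusted p = 0.083) and array weights (adjusted p = 0.0888). The call of Olfr746 in odor mice ended without GFP+ replicate 2 or 4 or GFP- replicate 4 (up to 0.058), and with array weights (adjusted p = 0.058). Olfr748 was called in odor mice without GFP+ replicate 3 (adjusted p = 0.0232) and in vehicle mice without GFP+ replicate 1 (adjusted p = 0.0446) and with array weights (adjusted p = 0.0389).

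Olfr746 and Olfr748, whose start windows were nearly identical, had values that moved together over the 12 arrays (Pearson r = 0.88, a description, since the arrays share pools and fractions). Both had their lowest GFP+ value in replicate 3 of the odor mice, at 4.28 for Olfr746 and 4.38 for Olfr748. Whether probes of one also bind RNA of the other was not tested.

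None of the 9 neighbours was called between odor and vehicle mice in either fraction. In GFP+ cells 8 of 9 had a difference below 0, with a median of -0.23 and a range of -0.62 to 0.05. Of all receptors, 633 of 1015 lay below 0 (median -0.05), as did 19 of the other 25 receptors of chromosome 14 (median -0.11). The lowest was Olfr743, at -0.62 (SE 0.21, unadjusted p = 0.01, limma adjusted p = 1.0), with 6 receptors lower and the arrays of the treatments overlapping. Unadjusted, Olfr743 was the only neighbour under 0.05, where 259 of all genes (1.3%) were.

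In the vehicle GFP+ arrays, replicate 1 was the highest for Olfr740, Olfr741, Olfr742, Olfr743 and Olfr744. Without that array the differences between odor and vehicle became 0.03 for Olfr740, -0.09 for Olfr741, -0.08 for Olfr742 and -0.39 for Olfr743, against -0.23, -0.29, -0.45 and -0.62 with it. The negative differences of Olfr740, Olfr741 and Olfr742 thus rested largely on that library, and none of these was called with or without it.

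In GFP- cells 7 of the 9 neighbours were below 0, with a median of -0.06. Olfr745 was lowest, at -0.55 (SE 0.41, limma adjusted p = 0.788), with odor arrays from 6.49 to 8.52 and vehicle arrays from 7.59 to 8.20. Olfr743 was highest, at 0.24 (SE 0.21, adjusted p = 0.81), and its 3 odor arrays lay above its 3 vehicle arrays, as they did for 2.79% of genes. None of the 9 neighbours passed the test of whether the odor difference depends on the fraction, which called 1 gene in all, Olfr747 (0.00502%), and 0 genes with the pool of mice as a fixed block. That test contains the GFP+ comparison that chose Olfr747, so nothing about Olfr747 is read from its call. Among the neighbours the smallest p was that of Olfr743, at -0.87 (SE 0.29, unadjusted p = 0.0112, limma adjusted p = 0.971). Olfr749 followed, at -0.40 (SE 0.26, unadjusted p = 0.149), and then Olfr745, at 0.59 (SE 0.59, unadjusted p = 0.332).

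Higher in GFP+ cells and lower in GFP- cells of odor mice, with no overlap of arrays in either fraction, were 69 of the 19938 genes (0.346%) and 1 of the 1015 receptors, Olfr747. Since Olfr747 was chosen on the GFP+ side, this is a description.

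**Figure D4:**
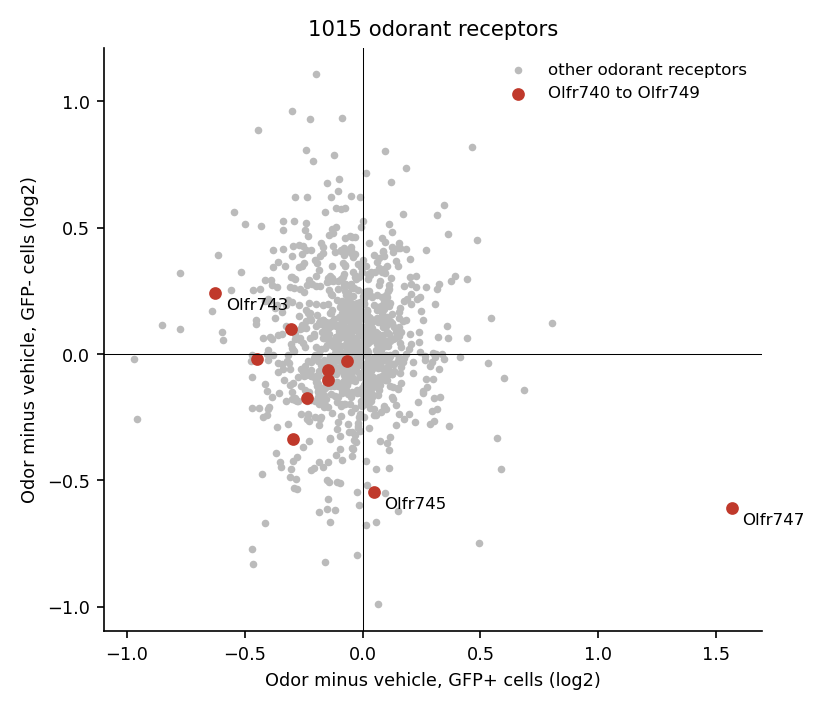
Odor minus vehicle log2 difference of 1015 odorant receptors, GFP+ cells on the x axis and GFP- cells on the y axis; Olfr740 to Olfr749 are red and the others grey. Olfr747, at 1.57 and -0.61, lies apart at the lower right, and the 9 neighbours lie among the other receptors.

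Along the chromosome, the closest neighbours of Olfr747 on each side differed between odor and vehicle GFP+ cells by -0.15 (Olfr746) and -0.15 (Olfr748), against 1.57 for Olfr747 itself. Within 1000 kb there were 26 receptors, Olfr747 and its 9 neighbours included. Of the 25 receptors of chromosome 14 outside the 10 genes, 0 were called for odor in either fraction, and unadjusted 0 had a p under 0.05 in GFP+ and 1 in GFP- cells. In the sort, 16 rose and 3 fell in odor mice, and 18 rose and 3 fell in vehicle mice. Over all receptors 57% rose and 12.4% fell in odor, and 60.1% rose and 11.1% fell in vehicle mice.

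The lowest sort differences in vehicle mice among these 25 were those of Olfr728 (-3.29), Olfr736 (-2.17) and Olfr1507 (-2.11), and the highest those of Olfr730 (2.57), Olfr725 (2.39) and Olfr731 (2.37). Receptors of the same chromosome thus lay on both sides of the sort. The 3 MOR106 genes outside the 10 lie just below Olfr740. Olfr736 fell in GFP+ cells, at -1.81 in odor mice (limma adjusted p = 0.000165) and -2.17 in vehicle mice (adjusted p = 4.47e-05), Olfr738 rose by 0.53 in odor and 0.43 in vehicle mice, and Olfr739 differed by -0.22 in odor and -0.27 in vehicle mice without passing.

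**Figure D5:**
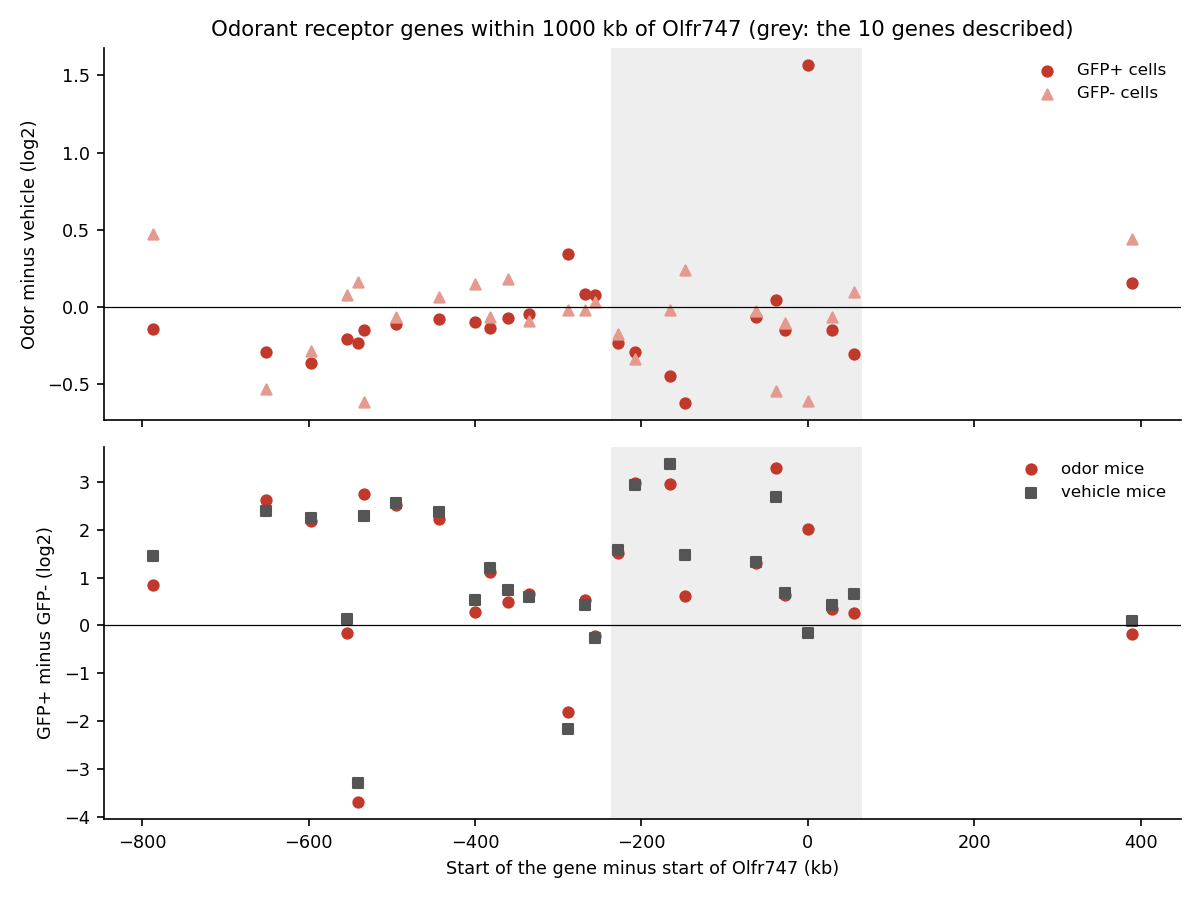
Log2 differences of the receptor genes within 1000 kb of Olfr747 by distance of their start from its own; the upper panel shows odor minus vehicle in GFP+ and GFP- cells, the lower GFP+ minus GFP- in odor and vehicle mice, and grey marks the 10 genes. Olfr747 stands alone at 1.57 in the upper panel, while the lower panel runs from values above 3 to values below -3.

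Of the 23 genes within 1 megabase that are no odorant receptors, none was called for odor in either fraction. Unadjusted, 0 had a p under 0.05 in GFP+ cells, and 1 was higher and 1 lower in GFP- cells. In the sort 4 rose and 4 fell in odor mice, and 3 rose and 6 fell in vehicle mice. Over all genes 33.5% rose and 18.7% fell in odor, and 29.9% rose and 18.2% fell in vehicle mice. Armh4 rose by 0.87 in odor and 1.00 in vehicle mice. Rnase2a (-3.17 in odor, -2.43 in vehicle mice), Rnase6 (-2.44 in odor, -2.22 in vehicle mice) and Rnase1 (-0.47 in odor, -0.70 in vehicle mice), which encode secreted ribonucleases, fell. The leukocyte markers were lower in the same arrays, and their part in these differences was not tested.

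The genes that carry a receptor's signal or bring it to the cilium were not called for odor: 0 of 20 measured passed in either fraction, and unadjusted 1 had a p under 0.05 in GFP+ and 0 in GFP- cells. In the sort 16 rose and 2 fell in odor mice, and 15 rose and 3 fell in vehicle mice, where over all genes 33.5% rose and 18.7% fell in odor and 29.9% rose and 18.2% fell in vehicle mice. Pde1c, a ciliary phosphodiesterase, rose by 0.93 in odor and 0.86 in vehicle mice, and Ano2, the chloride channel that amplifies the response, by 0.77 in odor and 0.79 in vehicle mice. Grk3, a kinase that desensitises receptors, fell (-1.34 in odor, -1.10 in vehicle mice), as did Arrb2, an arrestin (-0.87 in odor, -0.72 in vehicle mice). Of 12 genes known for receptor choice, 0 were called for odor, 0 had an unadjusted p under 0.05, and 8 rose and 2 fell in each sort comparison. Emx2, a homeodomain factor of these neurons, rose by 0.81 in odor and 0.77 in vehicle mice, and Lbr, the lamin B receptor, which mature sensory neurons lose, fell (-1.91 in odor, -1.80 in vehicle mice). Leukocytes also use Lbr, Grk3 and Arrb2, and the part of the cell content in these differences was not tested.

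Over the 12 arrays, the receptors whose values were most like those of Olfr747 were Olfr577 (Pearson r = 0.82), Olfr434 (0.81), Olfr1462 (0.78), Olfr151 (0.78) and Olfr1284 (0.77), none of them on chromosome 14, with Spearman rho of 0.67 to 0.88. Among other genes they were Lcmt1 (0.95), Mir133a-1 (0.93), 1700017G19Rik (0.89), H2al3 (0.88) and Zscan10 (0.87), with rho of 0.73 to 0.94. Its 9 neighbours had r between 0.19 (Olfr743) and 0.63 (Olfr745). Over the 6 GFP+ arrays alone the receptors were Olfr564 (0.99), Olfr577 (0.93), Olfr1200 (0.91), Olfr263 (0.87) and Olfr1489 (0.87), and the other genes Pcdh10 (0.99), Nkx3-2 (0.99), Prl4a1 (0.98), Nlrp9b (0.98) and Klf1 (0.97). The neighbours then ranged from -0.68 (Olfr743) to 0.05 (Olfr745). Apart from the neighbours, the genes named here differed between odor and vehicle GFP+ cells by 0.13 (Olfr1462) to 0.60 (Olfr1200), against 1.57 for Olfr747. Several, among them Olfr564, Olfr1462, Mir133a-1 and Nlrp9b, lay below the lower quartile of all genes in every array. The arrays form 4 groups and share pools, and the genes were picked as the highest of all correlations, so these are descriptions of the arrays.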

How the data were processed

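RNA abundance was measured on 12 arrays of sorted olfactory mucosa cells. The deposited log2 values per probe set were made by the authors in Expression Console, an Affymetrix program, per the submitters' processing notes. The sources used here give neither its version nor the algorithm and scaling. Values ran from 2.42 to 14.1, with array medians of 7.04 to 7.20, and were used as deposited with no low filter. An array gives no count, so the number of arrays limits the precision. Of 35556 probe sets, 21789 had 1 symbol; 1621 with several and 12146 with none were left out. For 999 genes with several probe sets the one with the highest mean was kept, leaving 19938 genes.

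The 4 groups were fitted in 1 model in limma 3.58.1 (R 4.3.3) with no replicate block, two-sided moderated tests and Benjamini-Hochberg adjustment over 19938 genes at 0.05. "Called" means past that threshold. In a test on simulated data for odor against vehicle in GFP+ cells over 19938 genes, 100 genes differed by 1.5 and 100 by 0.75. The noise was independent and normal. Of the differences of 1.5, 97% were recovered, and of those of 0.75, 78%, with 8 false calls. The adjusted threshold is harder to pass when fewer genes differ. These rates thus do not carry over to the comparison itself, where 1 gene was called. Promoter windows come from RefSeq (GRCm38.p6) and were aligned with Biopython 1.88; figures used matplotlib 3.10.9 under Python 3.11.15.

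Same-pool fractions come from the same mice per the labels, and their deviations from the group means correlated at 0.0732 to 0.252, so the pool pairs the fractions. Across treatments, samples with the same number in the sample code correlated at 0.185 to 0.309 in GFP+ cells and at -0.206 to 0.439 in GFP- cells. Alternatives were other scalings, filters, fits, blocks and each array left out. The members and lists were chosen with earlier results of these data known. Named genes are all 10 members, S100a5, Omp, the 5 receptors and 5 other genes most like Olfr747, the 3 highest and lowest other receptors of the chromosome, and up to 4 called members of each list; Olfr738 and Olfr739 were named as the remaining MOR106 genes, after their values were seen.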

Additional observations from a re-analysis of the deposited data

Results flagged for a closer look

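Olfr747 differed between odor and vehicle mice by 1.57 in GFP+ cells and by -0.61 in GFP- cells, with every odor array above every vehicle array in GFP+ cells and every odor array below every vehicle array in GFP- cells. The opposite directions drew attention to it. Without overlap, 4.49% of genes and 1.48% of receptors were higher in GFP+ cells, and 4.65% of genes and 2.17% of receptors lower in GFP- cells. Both held for 69 of the 19938 genes (0.346%) and 1 of the 1015 receptors. The GFP- difference of Olfr747 was not called (limma adjusted p = 0.732). Because the GFP+ comparison chose the gene, the difference between the fractions was not tested independently of that choice. The fit across all genes, which called it, contains the values that chose it.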

How the results depend on the processing

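The difference of Olfr747 between odor and vehicle GFP- cells lay between -0.76 and -0.49 in all 18 alternatives, called in none (limma adjusted p of 0.211 to 1.0). Olfr740, Olfr741, Olfr742, Olfr744 and Olfr745 kept their sort calls in both treatments in all 18. With receptors centred on their own median, the sort difference turned to -0.094 for Olfr743, -0.061 for Olfr746 and -0.45 for Olfr749 in odor mice, and to -0.14 for Olfr746 and -0.17 for Olfr749 in vehicle mice. Members called in the vehicle sort numbered 5 with the lowest genes left out, against 8, since that alternative tests fewer members. In GFP+ cells, genes and members called for odor numbered 0, against 1, with cyclic loess, with only the groups compared, with a replicate block by title number, of which the treatments share 2 and 4 (r of -0.171 and 0.268 in GFP+, 0.244 and 0.282 in GFP- cells), and with the sample code number as a block in only the groups compared, an alternative chosen after seeing the data; leaving out 1 array gave 0 to 1. In GFP- cells, leaving out 1 array gave 0 to 15 genes called, against 0: 15 without odor replicate 2, 3 without odor replicate 3 and 1 without odor replicate 4. The test of whether the odor difference depends on the fraction called 0 genes and 0 members, against 1, with cyclic loess and with the pool as a fixed replicate block, and 0 to 3 genes and 0 to 1 members when 1 array was left out. The cause of these changes was not tested. Of the remaining alternatives, the pool blocks changed no member's call in the sort other than Olfr748. Values of Olfr743, Olfr746, Olfr748 and Olfr749 near the bottom of the arrays' range limit what can be read from them.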
